A study of Mus musculus with 7 samples.

Results

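The genes described here are the interleukins and their receptors and binding proteins. They were taken as every probe set whose platform gene symbol is Il followed directly by a digit, which gave 79 of 23185 named genes, 1 probe set each. Of these, 36 encode ligands, 3 antagonist or anti-inflammatory ligands, 34 receptor chains and 4 decoy receptors or soluble binding proteins. The other 2 are Il1bos, a non-coding RNA on the opposite strand of the Il1b locus, and Il4i1b, which is named for its induction by IL-4. Older symbols were kept as the platform gives them, so that Il1f6, Il1f8 and Il1f9 are the genes of IL-36 alpha, beta and gamma, Il1f5 that of the IL-36 receptor antagonist and Il1f10 that of IL-38.

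Transcript levels were measured on Affymetrix whole-transcript arrays of lesional skin from ox40l-/- mice (knockout, 4 arrays) and ox40l+/+ mice (wild type, 3 arrays). All were C57BL/6 males 9 weeks old injected with bleomycin, a drug that provokes skin fibrosis in mice, over 3 weeks, so no array shows untreated skin and the response to bleomycin was not measured. The allele's construction is not given in the labels, nor is it stated that each array came from a different mouse, so the p-values rest on a spread between samples that may be technical. Values are log2 expression levels, and each gene's values are listed in the order knockout replicates 1, 2, 3 and 4 and wild type replicates 1, 2 and 3.

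Interleukins are secreted signals between leukocytes, epithelium and stroma. Ligands of the IL-1 family act through receptors that recruit MyD88 and IRAK kinases, IL-17 cytokines through receptors that recruit the adaptor Act1, and most others through receptor chains bound to JAK kinases, which activate STAT transcription factors. Decoy receptors and soluble binding proteins hold a ligand without passing the signal on. OX40L, encoded by Tnfsf4, is a costimulatory ligand for T cells, and its receptor OX40 is known to favour T cells that make the type 2 cytokines IL-4, IL-5 and IL-13. In skin, keratinocytes are known sources of IL-1 alpha, IL-18, IL-33 and IL-36, and IL-4, IL-13, IL-6, IL-11 and IL-17A are cytokines often studied in fibrosis.

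The targeted gene, Tnfsf4, had 3.35, 2.82, 2.81 and 2.81 in knockout skin, against 2.53, 2.60 and 3.65 in wild type skin, so the genotypes overlapped, and where its probes lie relative to the deleted part is not known here. On all arrays, 35.7% of named genes stood above the array median. Keratinocyte markers, which define skin with those of fibroblasts, did so for 7 of 7 genes, and fibroblast markers for 5 of 6. Both lists were highest on wild type replicate 1 and lowest on wild type replicate 3: the mean keratinocyte level was 7.18 to 7.40 in knockout, and 8.42, 7.19 and 6.40 on wild type replicates 1, 2 and 3. Skeletal muscle markers averaged 8.69 to 9.37 in knockout, and 8.63, 9.03 and 7.29 on the same wild type arrays. The part of these cells in the differences was not tested. These 2 wild type arrays stood apart in general. Their correlations with the other arrays across probe sets were 0.761 to 0.914, against 0.956 to 0.968 among the other 5, and the SD over all probe sets was 1.38 to 1.48 on the knockout arrays and 1.72, 1.46 and 1.22 on wild type replicates 1, 2 and 3. T cell markers, 1 of 8 of which was above the median on all arrays, had mean levels of 3.51 to 3.65 in knockout and 3.45 to 3.62 in wild type.

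The interleukin genes spread around the median of the arrays much as genes in general do. Each value was set against the median of all probe sets on its own array, 3.54 to 3.62 in knockout and 3.45 to 3.74 in wild type, as a description of signal and not as a call of presence. On all 7 arrays, 28 members (35.4%) lay above it, against 35.7% of all named genes, and 28 (35.4%) lay above it on no array, against 35.1%. The number of members above the median was 39 to 42 on knockout arrays and 36 to 42 on wild type arrays. Ligands were above on all arrays in 10 of 36 cases and on none in 17, while receptor chains were above on all arrays in 14 of 34 cases and on none in 9. Probe sets differ in how strongly they bind, so the height of 1 gene over the median was not compared with that of another.

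The IL-1 family held 11 of the 28 members that were above the median throughout, out of 20 in the family. They were the ligands Il18, Il33, Il1f6 and Il1f9, the antagonist Il1rn and Il1f10, the receptor chains Il1r1, Il1rap and Il18r1, the decoy receptor Il1r2 and the IL-18 binding protein Il18bp. From the IL-6 and IL-27 group these were Il27, Il27ra, Il6ra and the shared signalling chain Il6st, and from the IL-17 family Il17d, Il25, Il17ra and Il17rc. The rest were Il13, Il3ra, Il9r, Il15ra, Il12rb2, Il10rb, Il22ra1, Il16 and Il34. Among the 28 members above the median on no array were the T cell cytokines Il2, Il4, Il5, Il9, Il17a, Il21 and Il22, as well as Il6, Il7, Il12a, Il23a, Il31 and Il3.

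**Figure D1:**
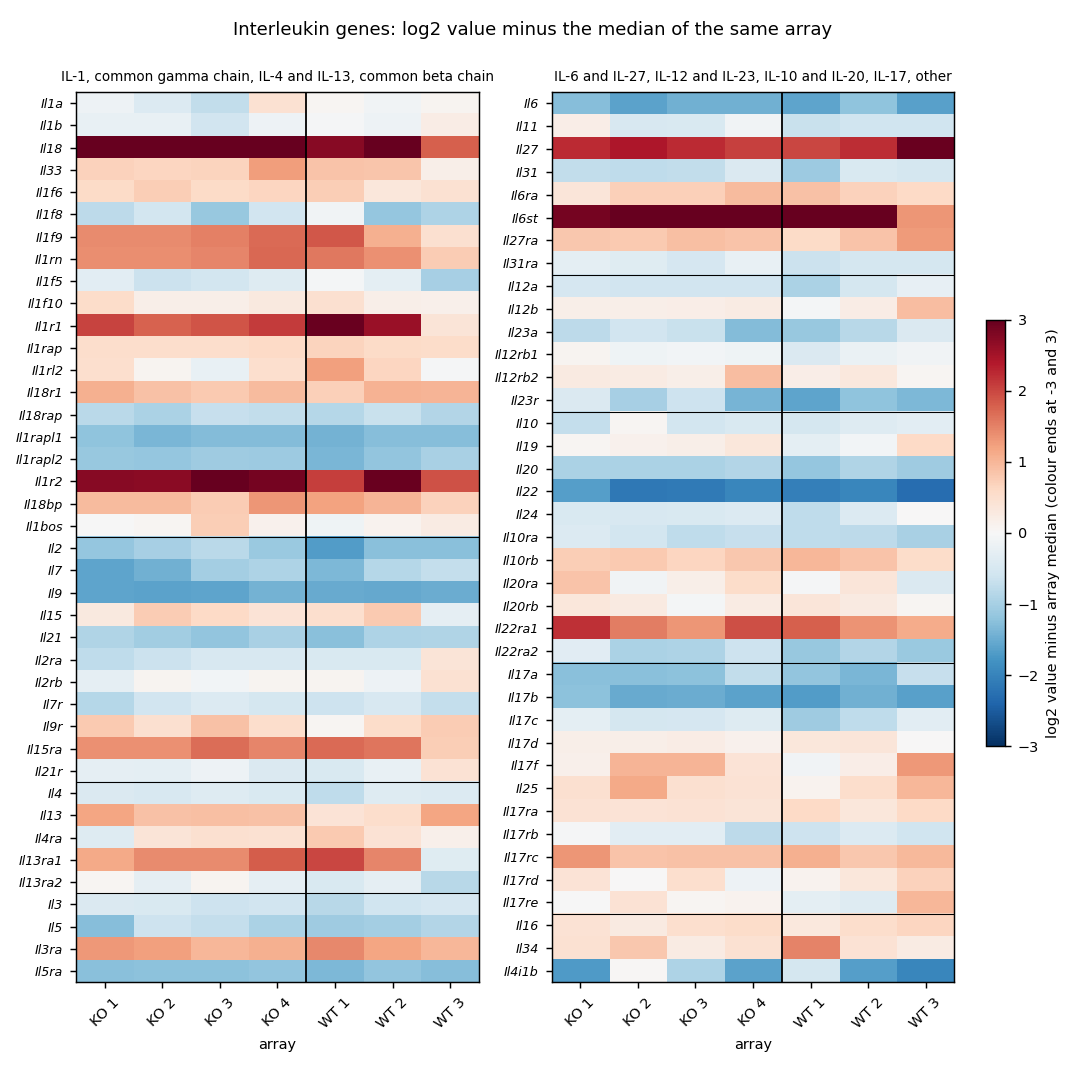
Log2 value minus the median of the same array for the 79 interleukin genes (rows, grouped by family with lines between families) on the knockout (KO) and wild type (WT) arrays (columns). Red is above and blue below the array median: 28 genes are above it on all 7 arrays and 28 on none.

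No interleukin gene passed an adjusted p under 0.05, and the share of members past an unadjusted threshold was close to that of all genes. Tests were made in limma on all 23185 named genes, with Benjamini-Hochberg adjustment over all of them, and every difference is the knockout mean minus the wild type mean, in log2 units. The lowest adjusted p of a member was 0.9995, and 1 of all genes passed (0.00431%). At an unadjusted p under 0.05, 2 members were called, Il18 and Il13ra2, both higher in knockout. That is 2.53% of the members, beside 1.88% of all genes (1.03% of all genes were higher and 0.854% lower in knockout). The genotypes did not overlap in 1 member, Il10ra, which is 1.27%, beside 1.91% of all genes (1.1% of all genes lay higher and 0.815% lower in knockout).

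Of the 79 differences, 51 were positive and 28 negative, with a median of 0.049 and a range from -0.41 to 0.80. Over all named genes 51.7% were positive and the median was 0.0096. The share of positive differences was 64.6% in the members, and it was higher in genes of low signal in general. Of the 28 members above the median on no array, 22 were positive (78.6%), beside 62.5% of all genes of that kind, and of the 28 above it throughout 17 were positive (60.7%), beside 44.9%. Without wild type replicate 1, positive differences numbered 35 of 79 and the members' median was -0.0071. Without wild type replicate 3 they numbered 59 and the median was 0.15.

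By role, the 4 decoy receptors and binding proteins all had positive differences (Il1r2 0.56, Il13ra2 0.43, Il22ra2 0.35 and Il18bp 0.037). Their median was 0.39, and 1 of them, Il13ra2, was past the unadjusted threshold. Over all named genes 51.7% of differences were positive, and 1.03% of genes were past that threshold and higher in knockout. The mean level of the 4 genes was 4.23 to 4.46 in knockout, and 3.87, 4.26 and 3.91 on wild type replicates 1, 2 and 3, so wild type replicate 2 lay inside the knockout range. Il18bp turned to -0.053 without knockout replicate 4, and Il1r2 to -0.065 against wild type replicate 2 alone. Ligands were positive in 23 of 36 cases (median 0.075) and receptor chains in 20 of 34 (median 0.036).

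The arrays fix the size of difference that could have been seen. The SE of a member's difference had a median of 0.21 and ran from 0.12 for Il1rap to 0.60 for Il6st. In 68 of 79 members the 95% confidence interval lay within a 2-fold difference in either direction, which is 86.1%, beside 73.7% of all genes. The median SD of a member was 0.18 within knockout and 0.33 within wild type, and 55 of 79 members varied more among the wild type arrays.

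**Figure D2:**
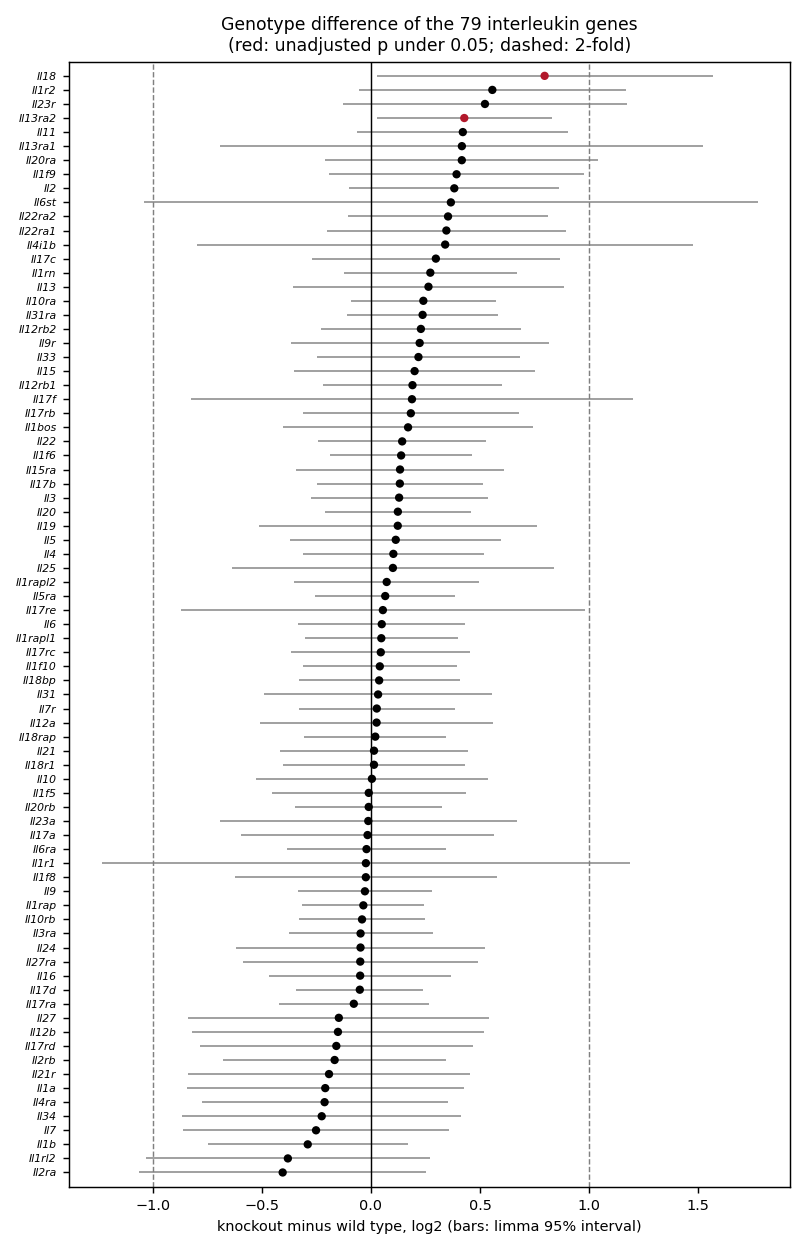
Knockout minus wild type difference of each of the 79 interleukin genes on the log2 scale, ordered by size, with limma's 95% confidence interval as bars. The intervals of Il18 and Il13ra2 (red) exclude 0 before adjustment, and dashed lines mark a 2-fold difference.

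Il18 had the largest difference of the members and was higher in knockout on average. It encodes a cytokine that is stored as a precursor, is matured by caspase-1 and promotes interferon-gamma production. Its log2 values were 6.95, 6.67, 6.61 and 7.51 in knockout skin, against 6.18, 6.70 and 5.54 in wild type skin. Wild type replicate 2 stood among the knockout values, and the other 2 wild type arrays below them. The means were 6.94 ± 0.41 (SD) in knockout and 6.14 ± 0.58 in wild type, and the difference was 0.80 (SE 0.33, 95% confidence interval 0.03 to 1.57, unadjusted p = 0.0445 in limma), with an adjusted p of 0.9995. Wild type replicate 3, the lowest array, also had the lowest keratinocyte marker level (6.40), but wild type replicate 1, the next lowest, had the highest (8.42). The part of keratinocytes in the difference was not tested. The Il18 difference was 0.50 without wild type replicate 3 (unadjusted p = 0.148 in limma) and 0.24 when knockout was set against wild type replicate 2 alone (unadjusted p = 0.584), a fit that takes the lone wild type array to vary as the knockout arrays do. Il18bp, whose product neutralises IL-18, had 4.57, 4.57, 4.37 and 4.86 in knockout skin, against 4.66, 4.57 and 4.44 in wild type skin, with all wild type values inside the knockout range. The receptor chains Il18r1 and Il18rap differed by 0.014 and 0.020. Casp1, the processing enzyme, had 6.04, 5.96, 5.65 and 6.16 in knockout skin, against 5.48, 6.09 and 5.03 in wild type skin and differed by 0.42 (SE 0.27), though by -0.14 against wild type replicate 2 alone.

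The IL-1 ligands themselves did not separate the genotypes. Il1b, the inflammasome-dependent cytokine of myeloid cells, had 3.40, 3.40, 3.03 and 3.40 in knockout skin, against 3.41, 3.40 and 3.97 in wild type skin. The same deposited value occurred on 4 arrays, and wild type replicate 3 was high and knockout replicate 3 low. The difference was -0.29 (SE 0.20, 95% confidence interval -0.75 to 0.17, unadjusted p = 0.179 in limma), and -0.10 without wild type replicate 3. Il1a, the IL-1 of keratinocytes, had 3.46, 3.21, 2.87 and 4.00 in knockout skin, against 3.50, 3.45 and 3.83 in wild type skin, and the wild type values lay inside the knockout range. Il1rn, the receptor antagonist, had 5.01, 5.01, 5.06 and 5.27 in knockout skin, against 5.02, 4.93 and 4.50 in wild type skin, with wild type replicate 3 below all others. Il33, the epithelial alarmin of type 2 responses, had 4.30, 4.27, 4.27 and 4.81 in knockout skin, against 4.30, 4.38 and 3.91 in wild type skin. For Il33, knockout replicate 4 was the highest and wild type replicate 3 the lowest.

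The receptors of the IL-1 family had differences of both signs, and none passed the unadjusted threshold. Il1r2, the decoy receptor that binds IL-1 without signalling, had 6.33, 6.33, 6.72 and 6.42 in knockout skin, against 5.51, 6.51 and 5.65 in wild type skin. Wild type replicates 1 and 3 were below every knockout array and replicate 2 was not, and the difference was 0.56 (SE 0.26, 95% confidence interval -0.06 to 1.17, unadjusted p = 0.0687 in limma). Against wild type replicate 2 alone its sign turned (-0.06). Il1r1, the signalling receptor, had 5.63, 5.38, 5.49 and 5.63 in knockout skin, against 6.41, 6.14 and 4.12 in wild type skin, so that the wild type arrays enclosed all knockout values and the difference was -0.02 (SE 0.52). Without wild type replicate 3 the Il1r1 difference was -0.74 (unadjusted p = 0.00191 in limma), and without replicate 1 it was 0.40. In the run without replicate 3, 12% of all genes were past the unadjusted threshold, and the lowest adjusted p of a member was 0.363. Il1rap, the shared accessory chain, differed by -0.035 and had the same deposited value on 5 arrays.

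IL-36 cytokines, which drive inflammation of the epidermis, and their receptor overlapped between genotypes. Il1rl2, the IL-36 receptor, had 4.12, 3.71, 3.38 and 4.05 in knockout skin, against 4.67, 4.21 and 3.71 in wild type skin, with wild type replicate 3 equal to knockout replicate 2 to 2 decimals. The difference was -0.38 (SE 0.28, 95% confidence interval -1.03 to 0.27, unadjusted p = 0.210 in limma), the second most negative of the members, and it was -0.15 without wild type replicate 1. Il1f6, or IL-36 alpha, had 4.19, 4.36, 4.19 and 4.18 in knockout skin, against 4.18, 3.89 and 4.20 in wild type skin. Il1f5, the antagonist, had 3.28, 2.98, 3.07 and 3.15 in knockout skin, against 3.38, 3.27 and 2.73 in wild type skin. Both overlapped between genotypes. Il1f9, or IL-36 gamma, had 5.04, 5.04, 5.12 and 5.24 in knockout skin, against 5.30, 4.62 and 4.23 in wild type skin, with wild type replicate 1 above and the other 2 wild type arrays below all knockout arrays.

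Members that neighbour each other in the order of genes in RefSeq formed 13 clusters, 8 of them pairs. All differences were positive in 6 clusters, all negative in 1, and of mixed sign in 6. In the clusters of more genes, Il1r2, Il1r1, Il1rl2, Il18r1 and Il18rap lie with at most 3 other protein-coding genes between neighbours, and their differences were 0.56, -0.023, -0.38, 0.014 and 0.020. A second cluster holds Il1f8, Il1f9, Il1f6, Il1f5, Il1f10 and Il1rn, with -0.024, 0.39, 0.14, -0.010, 0.040 and 0.27. The type 2 cytokine cluster of Il4, Il13 and Il5 had 0.10, 0.26 and 0.11, and Il24, Il20, Il19 and Il10 had -0.048, 0.12, 0.12 and 0.0041. Il1a, Il1b and Il1bos had -0.21, -0.29 and 0.17. None of these genes passed the unadjusted threshold.

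Among the IL-4 and IL-13 genes, Il13ra2 was the member with the smallest p. It encodes the high-affinity decoy chain for IL-13, and its transcription is known to be induced by IL-13. Il13ra2 had 3.66, 3.36, 3.69 and 3.27 in knockout skin, against 3.00, 3.29 and 2.92 in wild type skin. Knockout replicate 4 lay just below wild type replicate 2, and the other knockout arrays lay above all wild type arrays. The means were 3.50 ± 0.21 (SD) in knockout and 3.07 ± 0.19 in wild type, and the difference was 0.43 (SE 0.17, 95% confidence interval 0.03 to 0.83, unadjusted p = 0.04 in limma), with an adjusted p of 0.9995. The Il13ra2 difference was positive under all single-array omissions, from 0.35 without wild type replicate 3 to 0.54 without wild type replicate 2, and it was 0.21 against wild type replicate 2 alone. Only knockout replicates 1 and 3 exceeded their array's median.

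The ligands of this group overlapped between genotypes. Il13, a type 2 cytokine that promotes collagen production, had 4.80, 4.49, 4.50 and 4.41 in knockout skin, against 3.86, 4.08 and 4.93 in wild type skin. Wild type replicates 1 and 2 were below all knockout arrays and wild type replicate 3 was above them, so the Il13 difference of 0.26 (SE 0.27) became 0.58 without replicate 3 (unadjusted p = 0.00896 in limma) and 0.05 without replicate 1. In the run without replicate 3, 12% of all genes were past the unadjusted threshold. Wild type replicate 3 was the highest array in 32 of the 79 members, or 40.5%, beside 30.1% of all genes. Il4, whose signal shares a receptor with that of IL-13, had 3.19, 3.15, 3.21 and 3.10 in knockout skin, against 2.68, 3.17 and 3.32 in wild type skin, below the median on all arrays.

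The shared receptor chains were set apart mainly by single arrays. Il4ra, common to IL-4 and IL-13, had 3.21, 4.00, 4.09 and 4.00 in knockout skin, against 4.23, 4.00 and 3.89 in wild type skin. Knockout replicate 1 alone was low, the difference was -0.21 (SE 0.24, 95% confidence interval -0.78 to 0.35, unadjusted p = 0.405 in limma), and without that array it was -0.01. Il13ra1, the signalling partner for IL-13, had 4.74, 5.03, 5.01 and 5.35 in knockout skin, against 5.46, 5.03 and 3.37 in wild type skin. Wild type replicate 3 was low here, and the Il13ra1 difference of 0.42 (SE 0.47) turned to -0.21 without it. The eosinophil growth factor Il5 had 2.34, 2.99, 2.90 and 2.60 in knockout skin, against 2.39, 2.55 and 2.85 in wild type skin. Its receptor Il5ra had 2.37, 2.39, 2.37 and 2.37 in knockout skin, against 2.09, 2.37 and 2.46 in wild type skin. Both were below the median on all arrays and overlapped between genotypes.

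**Figure D3:**
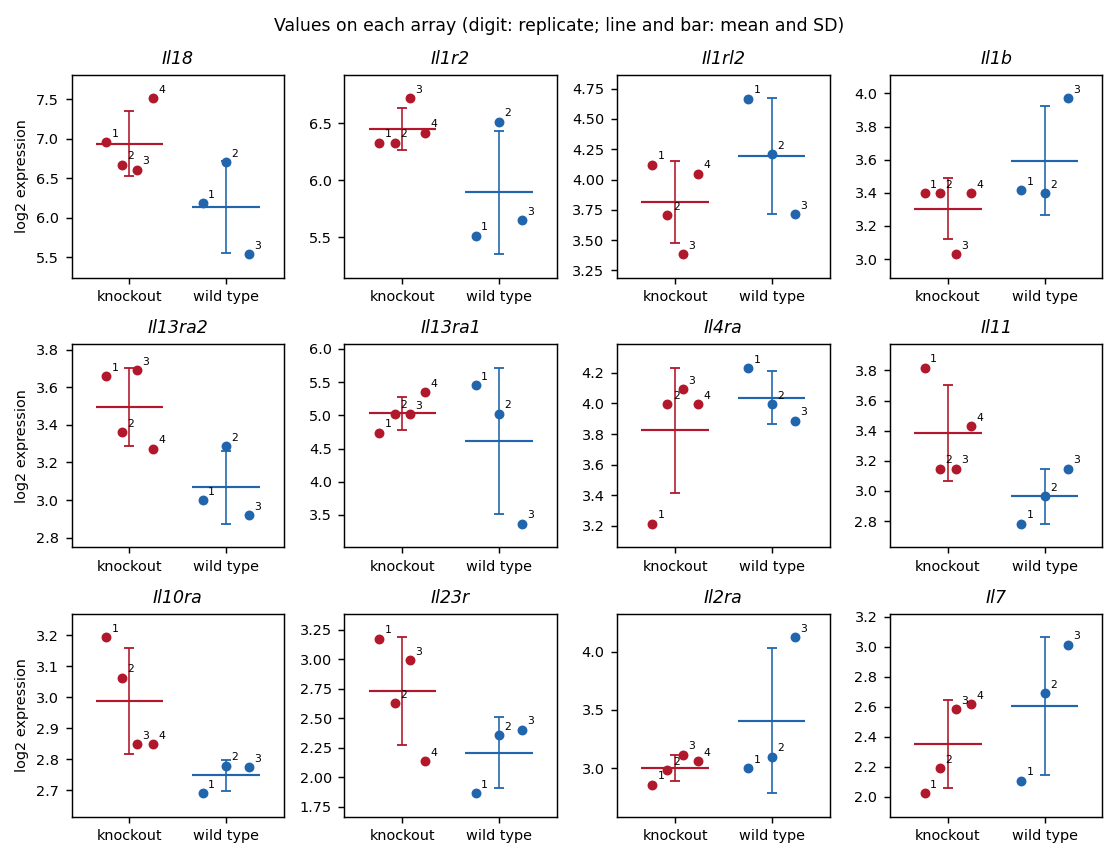
Log2 expression of 12 interleukin genes on each array, knockout (red) left of wild type (blue), with digits for the replicate and the mean and SD as line and bar. In Il10ra alone of the 12 all knockout values lie above all wild type values, and wild type replicate 3 is the array farthest from the knockout mean in Il18, Il1b, Il13ra2, Il13ra1, Il2ra and Il7.

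Cytokines and receptors of the common gamma chain group, which maintain lymphocytes, differed by -0.41 to 0.38, and 6 of 11 were positive. Il2ra, the alpha chain of the IL-2 receptor and a marker of regulatory and activated T cells, had 2.86, 2.98, 3.11 and 3.06 in knockout skin, against 3.00, 3.10 and 4.13 in wild type skin. Wild type replicate 3 was above all others. The difference was -0.41 (SE 0.28, 95% confidence interval -1.06 to 0.25, unadjusted p = 0.190 in limma), the most negative of the members, and -0.04 without that array. Il7, which sustains T cells, had 2.02, 2.19, 2.58 and 2.61 in knockout skin, against 2.11, 2.69 and 3.01 in wild type skin and differed by -0.25 (SE 0.26), or by -0.05 without wild type replicate 3. Its receptor Il7r had 2.76, 3.05, 3.19 and 3.02 in knockout skin, against 2.84, 3.09 and 3.02 in wild type skin. Il15, which supports NK and memory T cells, had 3.91, 4.39, 4.21 and 3.96 in knockout skin, against 3.96, 4.33 and 3.46 in wild type skin. Il7, Il7r and Il15 overlapped between genotypes.

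In the group that signals through gp130, Il6st, the gp130 chain itself, was above the median on every array with 6.49, 6.85, 7.24 and 7.47 in knockout skin, against 7.61, 7.25 and 5.07 in wild type skin. Wild type replicate 3 was the lowest, as it was for the keratinocyte and fibroblast markers, and wild type replicate 1 was the highest. The difference was 0.37 (SE 0.60), -0.42 without wild type replicate 3 and 0.85 without replicate 1. Il6, an acute-phase cytokine, had 2.34, 2.01, 2.17 and 2.10 in knockout skin, against 1.87, 2.35 and 2.10 in wild type skin, below the median on every array and overlapping between genotypes. Its receptor Il6ra had 3.98, 4.33, 4.33 and 4.49 in knockout skin, against 4.33, 4.25 and 4.33 in wild type skin. Il11, a gp130 cytokine linked to fibroblast activation, had 3.82, 3.15, 3.15 and 3.43 in knockout skin, against 2.78, 2.97 and 3.15 in wild type skin. Knockout replicates 1 and 4 exceeded all wild type arrays, while knockout replicates 2 and 3 held the same deposited value as wild type replicate 3. The difference of 0.42 (SE 0.21, 95% confidence interval -0.06 to 0.90, unadjusted p = 0.0785 in limma) was 0.28 without knockout replicate 1. It was 0 with the number of the sample description's code as a block, a fit described below.

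Il31, the itch cytokine of type 2 T cells, had 2.86, 2.86, 2.86 and 3.11 in knockout skin, against 2.37, 3.10 and 3.21 in wild type skin. Its receptor Il31ra had 3.31, 3.26, 3.11 and 3.33 in knockout skin, against 2.80, 3.04 and 3.21 in wild type skin. Il27, the p28 subunit of IL-27, had 5.84, 6.04, 5.84 and 5.59 in knockout skin, against 5.46, 5.77 and 6.69 in wild type skin. In Il27 and Il31, wild type replicate 3 was the highest array and wild type replicate 1 the lowest, and the knockout values lay between. In Il31ra, wild type replicate 1 was the lowest array and knockout replicate 4 the highest.

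The IL-12 and IL-23 group, whose ligands direct type 1 and type 17 T cells, had 4 positive differences of 6. Il12b, the subunit common to IL-12 and IL-23, had 3.80, 3.80, 3.80 and 3.80 in knockout skin, against 3.39, 3.78 and 4.67 in wild type skin. Il12a, the other IL-12 subunit, had 3.10, 3.04, 3.04 and 2.97 in knockout skin, against 2.51, 3.04 and 3.49 in wild type skin. Il23a, the subunit specific to IL-23, had 2.83, 3.05, 2.94 and 2.24 in knockout skin, against 2.30, 2.72 and 3.30 in wild type skin. Wild type replicate 3 was the highest array in all 3 genes. Il23r, the IL-23 receptor of type 17 cells, had 3.17, 2.63, 2.99 and 2.14 in knockout skin, against 1.86, 2.36 and 2.40 in wild type skin and differed by 0.52 (SE 0.28, 95% confidence interval -0.13 to 1.17, unadjusted p = 0.0996 in limma), with knockout replicate 4 inside the wild type range. All values of Il23r were below the array median.

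In the IL-10 and IL-20 group, 8 of 11 differences were positive. Il10ra, the ligand-binding chain for the anti-inflammatory IL-10, was the 1 member whose genotypes did not overlap, with 3.19, 3.06, 2.85 and 2.85 in knockout skin, against 2.69, 2.78 and 2.78 in wild type skin. Knockout values were higher by 0.24 (SE 0.14, 95% confidence interval -0.09 to 0.57, unadjusted p = 0.133 in limma), and the lowest knockout and the highest wild type arrays were close. The Il10ra difference was 0.18 after the arrays were quantile normalized again. It ran from 0.17 without knockout replicate 1 to 0.29 without knockout replicate 3, and its lowest value in any alternative was 0.073. All Il10ra values were below the array median. T cells are among the leukocytes that express this gene. T cell markers had positive differences in 5 of 8 cases, and 1 of them, Cd3d, was past the unadjusted threshold (0.58, SE 0.18). Their mean was 3.51 on knockout replicate 1, the highest array for Il10ra, and 3.55 to 3.65 on the other knockout arrays. Macrophage markers had negative differences in 6 of 7 cases, and 1 of them, Itgam, was past that threshold (-0.55, SE 0.22). Over all named genes, 1.03% were past it and higher in knockout, and 0.854% were past it and lower. Cd3d and Itgam each had an adjusted p of 0.9995 in limma. The part of T cells and macrophages in the Il10ra difference was not tested. Il10 itself had 2.90, 3.68, 3.06 and 3.08 in knockout skin, against 2.91, 3.18 and 3.43 in wild type skin. Il10rb, the chain shared with IL-22, had 4.35, 4.41, 4.24 and 4.35 in knockout skin, against 4.44, 4.41 and 4.28 in wild type skin. Both overlapped between genotypes.

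The epithelial ligands of this group were near or below the median. Il19 had 3.67, 3.76, 3.78 and 3.88 in knockout skin, against 3.14, 3.48 and 4.33 in wild type skin. Il20 had 2.66, 2.66, 2.66 and 2.66 in knockout skin, against 2.29, 2.66 and 2.66 in wild type skin. Il24 had 3.15, 3.15, 3.15 and 3.12 in knockout skin, against 2.67, 3.15 and 3.75 in wild type skin. Wild type replicate 1 was the lowest and wild type replicate 3 the highest in Il19 and Il24. Il22, the T cell cytokine that acts on keratinocytes, had 1.96, 1.49, 1.49 and 1.58 in knockout skin, against 1.40, 1.60 and 1.46 in wild type skin. No array was above the median, and knockout replicate 1 was the highest. That array was also the highest of the 7 for Il20ra, Il20rb, Il22ra1, Il22ra2 and Il10ra, so 6 of the 11 genes of the group peaked there, whereas over all named genes 11.1% did.

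IL-17 family genes overlapped throughout. Il17a, the cytokine of type 17 T cells, had 2.37, 2.37, 2.37 and 2.81 in knockout skin, against 2.25, 2.18 and 3.04 in wild type skin, below the median on all arrays. Il17f had 3.76, 4.64, 4.61 and 3.94 in knockout skin, against 3.35, 3.76 and 5.05 in wild type skin, and wild type replicate 3 was the highest array in both genes. Of the receptor chains, Il17ra and Il17rc, which pair to receive IL-17A, were above the median on every array. Il17ra had 4.04, 4.04, 4.04 and 3.93 in knockout skin, against 4.04, 3.90 and 4.34 in wild type skin. Il17rc had 4.93, 4.47, 4.49 and 4.43 in knockout skin, against 4.52, 4.37 and 4.71 in wild type skin. Il25, or IL-17E, an epithelial trigger of type 2 responses, had 4.09, 4.76, 4.09 and 3.98 in knockout skin, against 3.56, 4.09 and 4.74 in wild type skin, above the median on every array and with knockout replicate 2 and wild type replicate 3 high.

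Of the members outside these families, Il34, a keratinocyte ligand of the CSF1 receptor that maintains Langerhans cells, had 4.08, 4.42, 3.84 and 4.00 in knockout skin, against 4.94, 4.00 and 4.00 in wild type skin. Wild type replicate 1 was high, the Il34 difference was -0.23 (SE 0.27, 95% confidence interval -0.87 to 0.41, unadjusted p = 0.434 in limma), and without that array it was 0.09. Il16, a chemoattractant of CD4+ cells, had 4.03, 3.89, 4.10 and 4.09 in knockout skin, against 3.75, 4.09 and 4.39 in wild type skin, with the wild type arrays at both ends. Il4i1b was variable, and its highest array was knockout replicate 2.

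**Figure D4:**
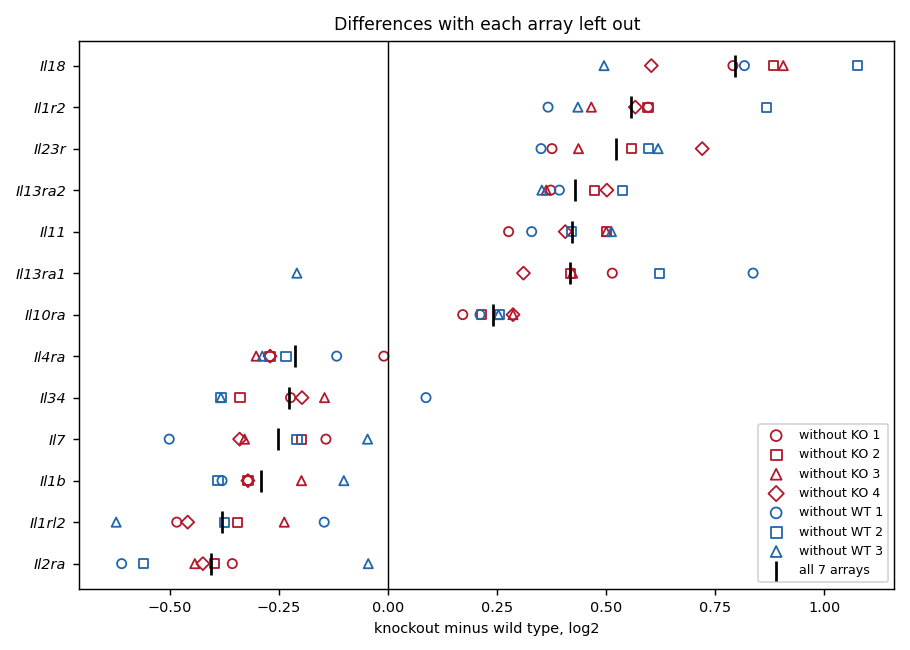
Knockout minus wild type difference (log2) of the 13 members that were past the unadjusted threshold, did not overlap or had the largest differences in either direction, with all 7 arrays (black bar) and with each array left out (symbols; KO knockout, WT wild type). Il13ra1 crosses 0 without wild type replicate 3 and Il34 without wild type replicate 1, and the other 11 members keep their sign.

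The 2 wild type arrays that stood apart were also the extremes of most members. Wild type replicate 1 was the lowest array in 39 of 79 members (49.4%), beside 39.1% of all named genes, and wild type replicate 3 in 14 (17.7%), beside 19.2%. Among the 28 members above the median on no array, replicate 1 was the lowest in 20 and replicate 3 the highest in 14. The mean deviation of those 28 genes from their own means was -0.30 on wild type array 1, and 0.14 on wild type array 3, with knockout arrays from -0.0049 to 0.11. All genes of low signal gave -0.25 and 0.20 on the same wild type arrays. Among the 28 members above the median throughout, wild type replicate 1 deviated by -0.054, where all such genes gave 0.26, and wild type replicate 3 by -0.14, where all such genes gave -0.23. A wider or narrower spread of values on an array and a different cell content of the sample cannot be told apart here, and in whole skin fewer cells of a type cannot be told apart from less RNA per cell.

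**Figure D5:**
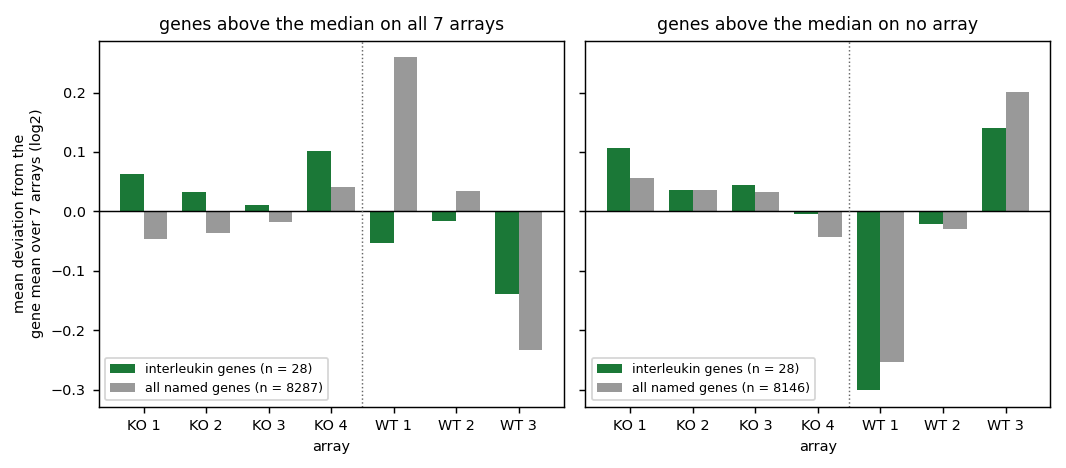
Mean deviation (log2) of genes from their own mean over the 7 arrays, for the 28 interleukin genes (green) and all named genes (grey) above the array median on all arrays (left) or on none (right), by knockout (KO) and wild type (WT) array. Genes of low signal are low on wild type replicate 1 and high on wild type replicate 3 in both sets, and among genes of high signal the interleukin genes lack the high level on wild type replicate 1 (-0.054 against 0.26).

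Leaving out wild type replicate 3 brought 7 members past the unadjusted threshold, which is 8.86%, beside 12% of all genes. The 7 were Il13, Il2, Il19, Il17c, Il17re and Il31ra, higher in knockout, and Il1r1, lower in knockout, and Il18 and Il13ra2 were not among them. The genotypes then did not overlap in 18 members (22.8%), beside 21.4% of all genes. The lowest adjusted p of a member was 0.363 in that run.

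Identical deposited values were common. In 23 of 79 members (29.1%) at least 3 of the 7 arrays had exactly the same value, beside 27% of all named genes, and Il1rap and Il20 had the same value on 5 arrays. The SDs of such genes rest on fewer distinct values than arrays.

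Genes that pass on or answer interleukin signals were examined from 5 lists. Of 18 JAK, STAT and SOCS genes measured of 19 listed, 8 differences were positive and 10 negative, with a median of -0.019, and 0 passed the unadjusted threshold. The smallest p were those of Stat2, a transducer of interferon signals, at -0.34 (SE 0.19), and Socs2, a feedback inhibitor, at 0.43 (SE 0.24). Of 13 adaptors of IL-1 and Toll receptors measured of 14, 4 were positive, 9 negative and 0 passed, with a median of -0.031. Tollip, a negative regulator of this route, differed by -0.40 (SE 0.22), and by 0.05 against wild type replicate 2 alone. Of 22 other cytokines and receptor chains measured of 23, 13 were positive, 9 negative and 0 passed, with a median of 0.025. Clcf1, a gp130 cytokine, differed by -0.53 (SE 0.24), and Tslp, the epithelial trigger of type 2 responses, by 0.69 (SE 0.40), or 0.14 without wild type replicate 1.

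Epithelial genes that answer IL-17, IL-22 and IL-36 had negative differences in 11 of 16 cases, with a median of -0.26, and 0 of them passed the unadjusted threshold. S100a7a, an antimicrobial S100 protein, had 3.96, 4.09, 3.90 and 3.75 in knockout skin, against 4.01, 4.21 and 4.52 in wild type skin. Cxcl2, a neutrophil chemokine, had 4.41, 4.79, 4.83 and 4.68 in knockout skin, against 4.88, 4.85 and 5.58 in wild type skin, so that its genotypes did not overlap (0.815% of all genes did so in this direction), and differed by -0.42 (SE 0.22, 95% confidence interval -0.94 to 0.09, unadjusted p = 0.0942 in limma). The mean level of the list was 4.62 to 5.55 in knockout, and 6.00, 5.01 and 4.86 on wild type replicates 1, 2 and 3. Hair follicle markers moved with it on wild type replicate 1, at 7.63 against 3.35 to 4.63 in knockout. They did not on knockout replicate 2, where the list averaged 5.55 and hair follicle markers 3.81. For neutrophil markers, means were 4.13 to 5.04 in knockout and 4.23 to 4.93 in wild type, highest on knockout replicate 2 and wild type replicate 1. S100a8 and S100a9 are in both the neutrophil list and the response list. The part of these cells in the difference was not tested.

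Of 15 genes of the type 2 response measured of 16, 6 differences were positive and 9 negative, with a median of -0.014, and 1 passed the unadjusted threshold, beside 1.03% of all genes that were higher by this rule. It was Retnla, a resistin-like protein that IL-4 and IL-13 induce in macrophages, with 9.72, 9.92, 11.79 and 10.42 in knockout skin, against 8.90, 9.47 and 8.93 in wild type skin. All knockout arrays were above all wild type arrays, as they were in 1.1% of all genes. The difference was 1.36 (SE 0.49, 95% confidence interval 0.22 to 2.51, unadjusted p = 0.0255 in limma), with an adjusted p of 0.9995. The Retnla difference was 0.92 without knockout replicate 3, its highest array, 1.28 without wild type replicate 3 and 0.99 against wild type replicate 2 alone. Macrophage markers had negative differences in 6 of 7 cases, with mean levels of 4.69 to 5.10 in knockout and 4.69 to 5.32 in wild type, and their part in the Retnla difference was not tested. Ccl17, a chemokine for type 2 T cells, had 3.33, 3.48, 3.10 and 3.47 in knockout skin, against 3.76, 3.48 and 3.80 in wild type skin. Its genotypes did not overlap either (0.815% of all genes did so in this direction), although the replicates 2 of both genotypes were equal to 2 decimals. Ccl17 differed in the other direction by -0.33 (SE 0.16, 95% confidence interval -0.70 to 0.04, unadjusted p = 0.0723 in limma).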

How the data were processed

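Total RNA of lesional skin was turned into biotinylated cDNA with the Affymetrix whole-transcript sense target kit, per the labels' protocols. The authors deposited log2 values, for which the submitters' processing notes name RMA (robust multi-array averaging). Its version, the definition of probe sets and the build are not given in the sources used here. No further normalization was applied. The platform annotation gave 1 symbol for 23185 of 25206 probe sets, several for 0 and none for 2021. All 23185 were found by Entrez number in a RefSeq gene table of GRCm38.p6, used for names and gene order.

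Groups were taken from the genotype in the sample titles. The test was limma 3.58.1 under R 4.3.3 (lmFit and eBayes with genotype as the only term, two-sided), run over all named genes with Benjamini-Hochberg adjustment at 0.05. The members, the lists and the rule for naming genes were chosen with earlier results of these data known. Values were printed for a fixed set of members, for members past an unadjusted p of 0.05 or without overlap, for the 6 largest differences in each direction, and for up to 4 genes of each list by smallest p. No set test was made.

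Precision is limited by having 4 and 3 arrays. The procedure was tested on simulated data. These were normal values with the same SD in both genotypes for each gene, without repeated values or arrays that stood apart. The simulation therefore does not cover these features of the arrays used here. The alternatives were another moderation, filters on dim genes, other normalizations, array weights, blocks, the array SD as a covariate, all probe sets, and leaving out arrays. Figures were drawn with matplotlib 3.10.9 in Python 3.11.15.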

Additional observations from a re-analysis of the deposited data

Results flagged for a closer look

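Of 46 interleukin genes whose values were listed, 11 (23.9%) had 1 knockout array past the critical value of Dixon's ratio to the other 3, beside 20.3% of all named genes. The ratio's nominal rate of about 1 in 20 assumes values without ties. In 6 of the 11 the other 3 knockout arrays held exactly the same deposited value, so that a departure of any size passes. These were Il1b (3.03 on knockout replicate 3, against 3.40), Il5ra (2.39 on knockout replicate 2, against 2.37), Il31 (3.11 on knockout replicate 4, against 2.86), Il24 (3.12 on knockout replicate 4, against 3.15), Il17a (2.81 on knockout replicate 4, against 2.37) and Il17ra (3.93 on knockout replicate 4, against 4.04). The remaining 5 are 10.9% of the 46, beside 11.4% of all named genes that passed without such ties. Il33 was 4.81 on knockout replicate 4 and 4.27 to 4.30 on the others, and Il1f6 was 4.36 on knockout replicate 2 and 4.18 to 4.19 on the others. Il4ra was 3.21 on knockout replicate 1 and 4.00 to 4.09 on the others. Il25 was 4.76 on knockout replicate 2 and 3.98 to 4.09 on the others, and Il17rc was 4.93 on knockout replicate 1 and 4.43 to 4.49 on the others.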

How the results depend on the processing

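The counts of calls depended on the arrays and the fit, while 0 members passed an adjusted p under 0.05 in any of the 19 alternatives (the lowest member adjusted p was 0.228, with array weights). The members past the unadjusted threshold, 2 with all arrays, were 1 with an intensity trend and robust moderation and 1 without the dimmest 50% of genes, and 0 after centring, with the replicate block and with the description code's suffix as a block. They were 5 with array weights (6.33%, beside 13% of all genes), 12 with the code number as a block (15.2%, beside 9.58%), 7 with the array SD as a covariate (8.86%, beside 7.61%) and 6 without both wild type replicates 1 and 3 (7.59%, beside 8.73%). With single arrays left out they ranged from 0 to 7, the highest count being 8.86%, beside 12%, without wild type replicate 3. Genes past the adjusted threshold, 1 with all arrays, were 0 with an intensity trend, quantile normalization, centring, the replicate block, either code block, the SD covariate, all probe sets and without both wild type arrays, and 0 in each run without 1 array. Unadjusted calls over all genes, 436 with all arrays, were 219 without the dimmest 50%, 716 after quantile normalization, 3003 with array weights, 251 with the replicate block, 2220 and 278 with the code number and suffix as blocks, 1765 with the SD covariate and 2024 without both wild type arrays, and 249 to 2786 without 1 array.

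Members whose genotypes did not overlap numbered 0 without the dimmest 30% or 50%, 8 after quantile normalization (10.1%, beside 5.03% of all genes), 4 after centring (5.06%, beside 4.12%), 29 without both wild type arrays (36.7%, beside 37.5%) and 1 to 18 without 1 array. Calls among the 82 genes of the 5 lists, 1 with all arrays (1.22%, beside 1.88% of all genes), were 3 after centring (3.66%, beside 1.82%), 11 with array weights (13.4%, beside 13%), 0 with the replicate block (beside 1.08%), 6 with the code number (7.32%, beside 9.58%), 5 with the SD covariate (6.1%, beside 7.61%), 7 without both wild type arrays (8.54%, beside 8.73%) and 0 to 11 without 1 array (11 being 13.4%, beside 12%). The members' median difference was -0.107 with the code number as a block, and -0.0071 to 0.15 without 1 array. Of the 79 members, 16 turned sign after quantile normalization, 19 with array weights, 31 with the code number, 24 without both wild type arrays and 3 to 24 without 1 array. The members above the median on all arrays stayed between 28 and 32. Differences turned sign for Il1r2 (-0.065), Il34 (0.087), Tollip (0.052) and Casp1 (-0.14) without both wild type arrays, for Il34 (0.055) and Casp1 (-0.072) with array weights, for Il4ra (0.20) with the code number as a block, for Il13ra1 without wild type replicate 3 (-0.21 to 0.84 without 1 array) and for Il34 without wild type replicate 1 (-0.38 to 0.087). The differences of Il11 and Tslp were 0 with the code number as a block. In that fit each difference is the value on knockout replicate 3 minus that on wild type replicate 3. For Il11 and Tslp these arrays held the same value. The cause of the other changes was not tested.

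Array weights were estimated gene by gene, because limma's default estimate stopped before converging. That default gave wild type replicate 2 a weight of 75.4 against 0.106 to 1.19 for the other arrays. With those weights 8 of 79 members passed the adjusted threshold, beside 4032 of all 23185 named genes. The fit with default weights is not among the 19 alternatives. Same-numbered replicates did not deviate together (correlations of -0.086, -0.15 and 0.034), so the replicate numbers were not taken to pair the samples. With both wild type arrays left out, the lone one is taken to vary like the knockout arrays. The sample descriptions carry codes of unstated meaning, of which the number and the suffix were tried as blocks. With the number as a block, the differences and counts rest on knockout replicate 3 against wild type replicate 3 alone. With 3 wild type arrays, 2 of which stood apart, the 95% confidence interval of the difference held 0 in all but 2 of the 79 members, and 28 members had no value above the array median.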
